A study of Mus musculus with 12 samples.

Results

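The Schlafen genes are a family of lymphoid and myeloid genes that lie side by side on mouse chromosome 11. The members described here are Slfn1, Slfn2, Slfn3, Slfn5, Slfn8 and Slfn9, taken by gene symbol from a table of 55487 features, so 6 genes in all. Of these, 4 (Slfn2, Slfn3, Slfn8 and Slfn9) passed the filter that left 12364 genes for testing, and Slfn1 and Slfn5 did not. RNA was sequenced from mouse natural killer (NK) cells, lymphocytes that kill target cells and secrete interferon gamma. Every sample came from the strain B6.129S4-Ifngtm3.1Lky/J with the genotype mut/mut, in which a yellow fluorescent protein (YFP) is reported from the interferon gamma gene, and every sample carries the label HD IL-15, a cytokine that sustains NK cells. The 3 groups of 4 samples were unstimulated cells, cells given an antibody against the NK1.1 receptor for 6 h and negative for the reporter (YFP-), and cells given the same antibody for 6 h and positive for it (YFP+). No group without the reporter allele or without IL-15 was analysed here, and the labels do not give the age of the mice. Each group holds 1 sample with each of the labels f2, m2, m3 and m4. Nothing says that samples are separate mice, so p-values measure the spread between these samples, which may be technical.

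Schlafen proteins share a core fold that binds RNA and, in several members, cleaves transfer RNA, and many of the genes are induced by type I interferon. The short members Slfn1 and Slfn2 consist of little more than that core, Slfn3 and Slfn4 are of intermediate length, and the long members Slfn5, Slfn8, Slfn9 and Slfn14 add a helicase-like part. Slfn2 is known for keeping T cells and monocytes quiescent and for protecting transfer RNA from stress-induced cleavage.

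On the GRCm38 build, with GENCODE M21 gene models, the members lie with Slfn4, Slfn10-ps and Slfn14 between bases 82951349 and 83286726 of chromosome 11. The upper end is that of Slfn14, which is not among the members. These 335 kb hold 8 protein-coding genes, and all 8 are Schlafen genes. Slfn5 (ENSMUSG00000054404) is at chr11:82951349-82964840 on the plus strand, Slfn9 (ENSMUSG00000069793) at chr11:82978390-82991830 on the minus strand and Slfn8 (ENSMUSG00000035208) at chr11:83002158-83020810 on the minus strand. Slfn2 (ENSMUSG00000072620) is at chr11:83065112-83070678, Slfn1 (ENSMUSG00000078763) at chr11:83116849-83122670 and Slfn3 (ENSMUSG00000018986) at chr11:83191330-83215154, each on the plus strand. Between Slfn8 and Slfn2 lies the transcribed pseudogene Slfn10-ps.

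Slfn8 and Slfn9 are near copies of each other. Their longest transcripts were 92.3% identical over 3728 aligned bases, and each was similarly close to Slfn10-ps, with 92.9% identity over 3505 bases for Slfn8 and 93.0% over 3410 bases for Slfn9. Even so, only 3.38% of the 100-base stretches of Slfn8 exons and 3.71% of those of Slfn9 occurred unchanged in another gene. How reads that match several genes were assigned is not given in the sources used here, so the split between these 3 features is uncertain. The same doubt holds for Slfn3, which was 94.9% identical to Slfn4 over 1376 aligned bases. It had 2.92% of its 100-base stretches in other genes, which were 4930435F18Rik, Gm11427 and Gm42519 and not Slfn4. Slfn5 is in doubt too, with 6.40% of its stretches in Gm28017, Klhl24 or Slfn5os. Slfn2 shared 0.128% of its 100-base stretches with another gene and Slfn1 shared 0%, the lowest shares of the members.

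The sequences just upstream of Slfn8 and Slfn9 were alike as well, while that of Slfn2 differed from both. They are shown as examples. Among these 3 genes only the first 2 hold an interferon-stimulated response element (ISRE), the sequence bound by the interferon-activated factors. Slfn5 also holds a match and is not shown. Slfn3, which was lower in YFP+ than in unstimulated samples as well, holds none. The sequences come from RefSeq on GRCm38.p6, each ends at the base before the annotated start, and capitals mark the match to the ISRE letters (GAAA, 2 bases of any kind, GAAA), here read on the opposite strand.
Slfn8, chr11:83020811-83020913, minus strand: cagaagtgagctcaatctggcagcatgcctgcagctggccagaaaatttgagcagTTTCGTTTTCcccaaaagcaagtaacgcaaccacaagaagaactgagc
Slfn9, chr11:82991831-82991930, minus strand: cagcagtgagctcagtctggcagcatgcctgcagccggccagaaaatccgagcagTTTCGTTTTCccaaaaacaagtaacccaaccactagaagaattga
Slfn2, chr11:83065002-83065111, plus strand: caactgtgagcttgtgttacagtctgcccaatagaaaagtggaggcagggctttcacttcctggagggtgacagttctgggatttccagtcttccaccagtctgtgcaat

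The match in Slfn8 lay 39 to 48 bases before the start used here and that in Slfn9 lay 36 to 45 bases before its start. Slfn8 has another annotated start, and the match lay 127 to 136 bases before that one. Over the 250 bases before the start, the Slfn8 and Slfn9 windows were identical at 206 of 242 aligned bases (85.1%). Slfn2 was identical to Slfn8 at 136 of 212 aligned bases (64.2%). Windows were searched on both strands, and all 6 members had at least 1. A gene can have more than 1 window, so a share of windows is not a share of genes. The ISRE letters were found in 3 of the 6 members (Slfn5, Slfn8 and Slfn9) and in 2.98% of 32851 windows of all genes. In Slfn5 the letters GAAAAAGAAA lay 146 to 155 bases before the RefSeq start, which is downstream of the GENCODE start given above. The GAS letters TTCNNNGAA (7.02% of windows), the AP-1 letters TGANTCA (6.75%) and the NF-kappaB letters (GGG, 2 bases of any kind, TTTCC; 1.41%) were found in 0 of the 6 members. A match is a description of the letters, and no binding was measured.

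Library totals ran from 32.1 to 54.2 M reads (M for mega), and 3 reads, the smallest level taken as measurable, corresponded to 0.0553 to 0.0933 CPM (reads relative to the library total). Such floors cover counting error only. Features resembling ribosomal RNA took 27.4 to 35.3% of the reads of unstimulated samples, 15.9 to 30.3% for YFP- samples and 13.7 to 29.8% for YFP+ samples. With these features left out of the totals, the same numbers of members were called in each comparison. All 9 NK cell markers passed the filter, with summed levels of 13560 to 16232 CPM in unstimulated samples, 9572 to 12106 in YFP- samples and 10141 to 14090 in YFP+ samples.

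In YFP+ cells the 4 Schlafen genes tested were all lower than in unstimulated cells, and Slfn8 was reduced the most in size. In YFP- cells, which met the same antibody, Slfn8 and Slfn9 had fallen and Slfn2 and Slfn3 had not passed the test. Comparisons of YFP+ and YFP- cells with unstimulated cells share the same 4 unstimulated samples. No time is listed for the unstimulated samples, and the part of time in culture in these comparisons was not tested. Genes were tested with limma on log2 CPM, with p-values adjusted by the Benjamini-Hochberg method over all 12364 genes, and called at an adjusted p under 0.05. In bulk RNA, fewer cells of a type and less RNA per cell cannot be told apart.

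Of the 4 members tested, 2 were lower in YFP- than in unstimulated samples, where 20.9% of all genes tested were lower and 30.2% higher. In YFP+ against unstimulated samples 4 of 4 were lower, where 33.3% of all genes were lower and 27.5% higher. In YFP+ against YFP- samples 4 of 4 were lower, where 18.5% of all genes were lower and 3.28% higher. No member was called higher by limma in any of the comparisons, and none was higher at an unadjusted p under 0.05. Slfn2 and Slfn9 were above the filter level in 12 of 12 samples and Slfn3 and Slfn8 in 11 of 12, so none of the 4 entered the test through 1 group alone.

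**Figure D1:**
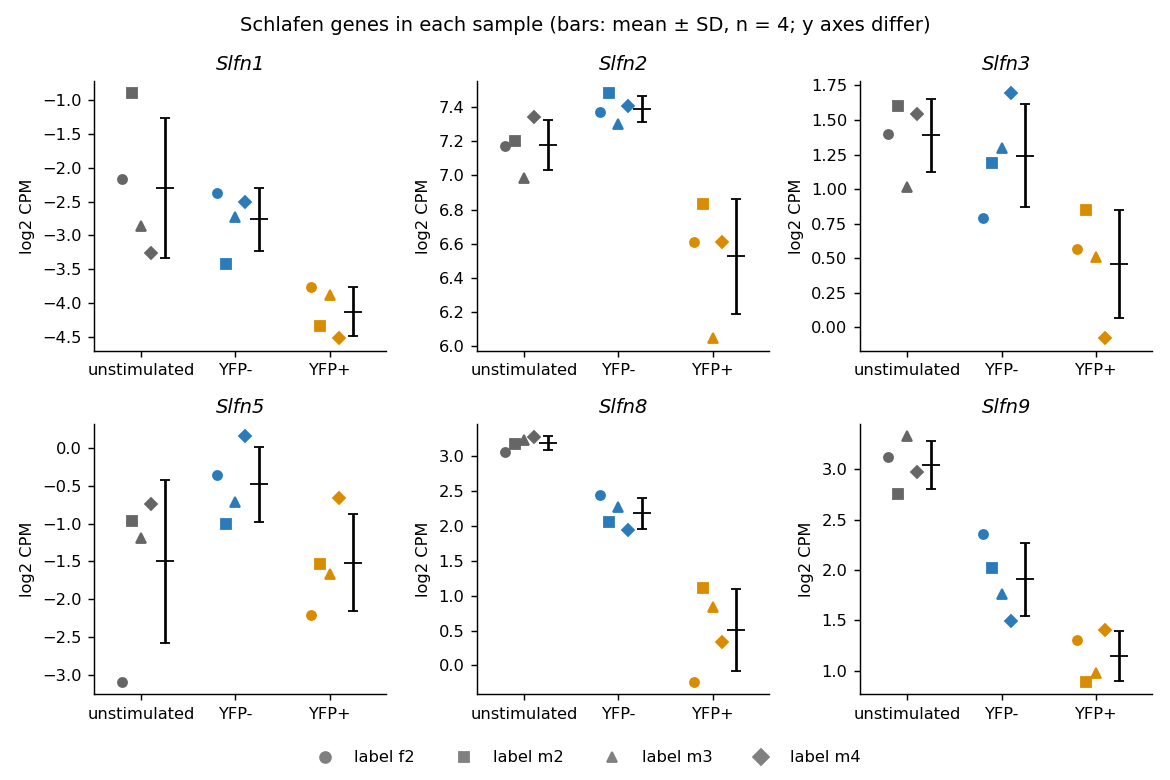
Levels of the 6 Schlafen genes as log2 CPM (y axes differ between panels), with 1 point per sample, shapes for the labels f2, m2, m3 and m4, and bars for the mean ± SD of 4 samples in each group. Slfn8 and Slfn9 step down from unstimulated to YFP- to YFP+ samples without overlap, whereas Slfn2 is separated from the other groups in YFP+ samples.

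Slfn2, the quiescence-linked short member, was by far the most abundant. It measured 144, 147, 127 and 162 CPM in unstimulated samples f2, m2, m3 and m4. It measured 165, 179, 158 and 170 CPM in the YFP- samples and 97.7, 114, 66.0 and 97.8 CPM in the YFP+ samples, in the same order. All 4 YFP+ samples lay below every other sample, while the YFP- and unstimulated ranges overlapped. Slfn2 fell by 0.87 on the log2 scale in YFP+ against YFP- samples (SE 0.15, limma adjusted p = 0.00121). Against unstimulated samples it fell by 0.65 (SE 0.15, limma adjusted p = 0.00199). Both calls were kept under all 16 alternative settings.

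In YFP- samples Slfn2 was 0.21 above unstimulated samples on the log2 scale (95% interval -0.11 to 0.54, limma adjusted p = 0.253), which did not pass. The YFP- sample was the higher one for 4 of 4 labels, but with quantile normalization the difference was -0.019. The mean Slfn2 level of YFP+ samples was 64.7% of the unstimulated mean, and that of YFP- samples was 116% of it. Among the YFP+ samples m3 was the lowest, at 66.0 CPM for Slfn2 against up to 114 CPM in the others. Its library had 36.2 M reads, of which 29.8% resembled ribosomal RNA, the largest share among YFP+ samples. In the alternative with sample weights it had the lowest weight of the 12 samples (0.267).

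Slfn1, the other short member, was close to the limit of measurement and was left out of the main test. It had 8, 20, 5 and 3 reads in unstimulated samples f2, m2, m3 and m4, 8, 4, 6 and 8 reads in YFP- samples and 3, 2, 2 and 1 reads in YFP+ samples. The YFP+ levels were below all others in CPM, and the other groups overlapped. Summed over libraries, the YFP+ rate was 0.192 times the unstimulated rate (8 against 36 reads, 95% exact interval 0.0772 to 0.421, counting error only). Without the samples labelled m2 the ratio was 0.353 (6 against 16 reads, interval 0.113 to 0.950). In a fit without the filter, Slfn1 passed in YFP+ against unstimulated samples (limma adjusted p = 0.0353) and not in YFP+ against YFP- samples (limma adjusted p = 0.282).

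Slfn3, of intermediate length, was low but measurable. It measured 2.62, 3.03, 2.01 and 2.90 CPM in unstimulated samples f2, m2, m3 and m4. The YFP- samples gave 1.72, 2.27, 2.44 and 3.22 CPM and the YFP+ samples 1.47, 1.79, 1.41 and 0.933 CPM. The YFP+ samples lay below all unstimulated samples but overlapped the YFP- samples, since the YFP+ sample m2 exceeded the YFP- sample f2. Slfn3 fell by 0.93 on the log2 scale in YFP+ against unstimulated samples (SE 0.26, limma adjusted p = 0.00629), a call lost only with quantile normalization (adjusted p = 0.0702). In YFP- against unstimulated samples the difference was -0.15 (95% interval -0.70 to 0.40, limma adjusted p = 0.655) and did not pass.

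The lower Slfn3 level in YFP+ against YFP- samples was not secure. The log2 difference was -0.78 (SE 0.26, limma adjusted p = 0.0435), and 12 of 15 alternatives lost the call. Leaving out the samples labelled f2, m2, m3 or m4 gave log2 differences of -0.97, -0.93, -0.78 and -0.45, with adjusted p-values of 0.0536, 0.0835, 0.118 and 0.303. The difference was larger without f2 or m2 and smaller without m4.

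Slfn8, a long member, showed the clearest steps. It measured 8.31, 9.05, 9.41 and 9.71 CPM in unstimulated samples f2, m2, m3 and m4. The YFP- samples gave 5.44, 4.15, 4.82 and 3.83 CPM and the YFP+ samples 0.838, 2.14, 1.77 and 1.24 CPM. The 3 groups did not overlap at all, and on the log2 scale the unstimulated samples varied the least (SD 0.097). Slfn8 fell by 1.01 on the log2 scale in YFP- against unstimulated samples (SE 0.25, limma adjusted p = 0.00432). It fell by 2.68 in YFP+ against unstimulated samples (SE 0.25, limma adjusted p = 7.65e-07), to 16.4% of the unstimulated mean.

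Between the stimulated groups Slfn8 fell by 1.67 on the log2 scale (SE 0.25, limma adjusted p = 0.000413), to 32.8% of the YFP- mean. Only 3.42% of the genes tested had a lower difference in that comparison. All 3 differences of Slfn8 stayed called under the 16 alternatives, with values from -1.91 to -1.18 for YFP+ against YFP- samples. The reads behind these values numbered 315 to 375 in unstimulated samples, 188 to 241 in YFP- samples and 40 to 116 in YFP+ samples.

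Slfn9, the neighbouring near copy, followed the same order of groups. It measured 8.68, 6.73, 10.02 and 7.83 CPM in unstimulated samples f2, m2, m3 and m4. The YFP- samples gave 5.10, 4.03, 3.39 and 2.81 CPM and the YFP+ samples 2.45, 1.84, 1.96 and 2.64 CPM. The groups did not overlap, although the YFP- sample m4 and the YFP+ sample m4 were close. Slfn9 fell by 1.13 on the log2 scale in YFP- against unstimulated samples (SE 0.21, limma adjusted p = 0.000605). It fell by 1.90 in YFP+ against unstimulated samples (SE 0.21, limma adjusted p = 4.04e-06), to 26.8% of the unstimulated mean, and both calls were kept under all 16 alternatives.

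The step from YFP- to YFP+ samples was less secure for Slfn9 than its other differences. The log2 difference was -0.76 (SE 0.21, limma adjusted p = 0.0201), and 9 of 16 alternatives lost the call. Leaving out the samples labelled f2, m2 or m3 gave log2 differences of -0.67, -0.64 and -0.76, with adjusted p-values of 0.0828, 0.135 and 0.0672. Without m4 the call was kept (-0.99, adjusted p = 0.0215). With quantile normalization the difference was -0.41 (adjusted p = 0.185).

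The log2 level of Slfn8 minus that of Slfn9 was taken within samples. It is given as a description, since the pair was chosen after its values were seen. It ran from -0.09 to 0.43 in unstimulated samples and from 0.04 to 0.51 in YFP- samples. In YFP+ samples it was -1.54 for f2, 0.21 for m2, -0.15 for m3 and -1.08 for m4. The YFP+ values were spread widely and overlapped the others.

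The pseudogene Slfn10-ps, which resembles both, measured 13.1, 11.2, 13.4 and 9.12 CPM in unstimulated samples. The YFP- samples gave 6.66, 6.32, 3.02 and 4.42 CPM and the YFP+ samples 3.86, 3.24, 3.01 and 3.14 CPM. Its YFP- and YFP+ ranges overlapped, and both lay below the unstimulated samples. Against unstimulated samples it fell by 1.25 on the log2 scale in YFP- samples (limma adjusted p = 0.000662). It fell by 1.81 in YFP+ samples (limma adjusted p = 1.69e-05). Between the stimulated groups the difference was -0.56 (limma adjusted p = 0.110).

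Slfn5, the third long member, was low and did not follow Slfn8 and Slfn9 in order. It had 4, 19, 17 and 19 reads in unstimulated samples f2, m2, m3 and m4, 34, 24, 26 and 54 reads in YFP- samples and 10, 18, 11 and 20 reads in YFP+ samples. The groups overlapped in every comparison, and the unstimulated sample f2 was far below the other 3. In a fit without the filter the log2 difference was 1.02 in YFP- against unstimulated samples (limma adjusted p = 0.431) and -1.04 in YFP+ against YFP- samples (limma adjusted p = 0.582). Slfn5 overlaps the antisense gene Slfn5os, and no source used here says that strand was used in counting, so their reads cannot be told apart. Slfn5os itself had 0 to 2 reads in a library. Slfn2 overlaps the annotated gene Gm20234 and Slfn9 overlaps Mir7679, whose reads were not examined here.

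Of the remaining protein-coding genes of the locus, Slfn4 had 5 to 32 reads and Slfn14 had 7 to 23 reads in a library. Both missed the filter. Slfn14, a long member, measured 0.216 to 0.251 CPM in unstimulated samples and 0.323 to 0.519 CPM in YFP- samples, without overlap, but did not pass in a fit without the filter (limma adjusted p = 0.180).

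**Figure D2:**
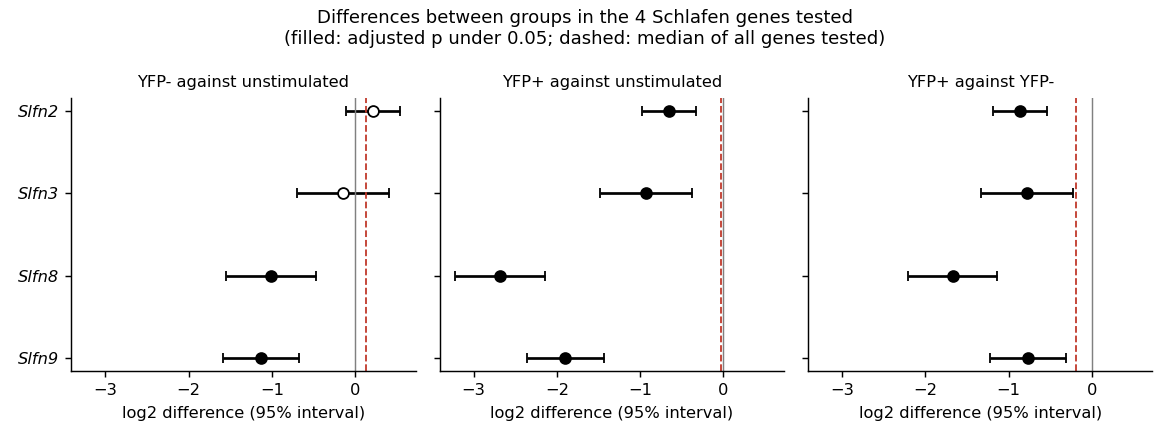
Log2 differences of the 4 Schlafen genes tested (x axis) in the 3 comparisons, with 95% intervals from limma, filled points for an adjusted p under 0.05 and a dashed line at the median of all genes tested. The point for Slfn8 lies at -2.68 in YFP+ against unstimulated samples, and the open points are Slfn2 and Slfn3 in YFP- against unstimulated samples.

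The median difference of all genes tested depends on how samples are scaled. In YFP+ against YFP- samples it was -0.19 on the log2 scale in the deposited values and 0.07 after centring each sample on its median. Relative to the deposited median, the difference in that comparison was -1.48 for Slfn8, -0.68 for Slfn2, -0.59 for Slfn3 and -0.57 for Slfn9. In YFP- against unstimulated samples the median was 0.14, and Slfn8 stood at -1.14 and Slfn9 at -1.27 relative to it. In YFP+ against unstimulated samples the median was -0.03. Every called member difference kept its sign under the 4 other scalings run.

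Because genes differ in length, their levels were ranked as CPM per kb of exons. In unstimulated samples the order was Slfn2 (87.3), Slfn8 (2.23), Slfn9 (1.39), Slfn3 (0.774), Slfn1 (0.128) and Slfn5 (0.0639). Only the ranges of the last pair overlapped between neighbours. In YFP- samples the order was Slfn2 (101), Slfn8 (1.11), Slfn3 (0.707), Slfn9 (0.643), Slfn5 (0.117) and Slfn1 (0.0755), and the neighbours Slfn8 and Slfn3, Slfn3 and Slfn9, and Slfn5 and Slfn1 overlapped.

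In YFP+ samples Slfn2 stood at 56.4 CPM per kb, and Slfn3 (0.411), Slfn9 (0.373) and Slfn8 (0.366) overlapped one another. Slfn5 (0.0578) and Slfn1 (0.0248) were last and overlapped too.

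**Figure D3:**
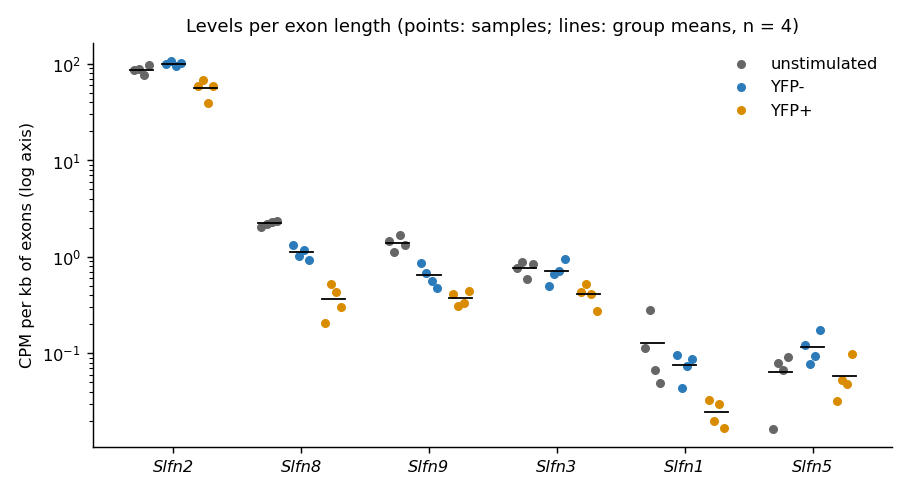
Levels of the 6 Schlafen genes in CPM per kb of exons (log axis), with 1 point per sample, colours for the 3 groups and lines for the means of 4 samples. Slfn2 is far above the rest in every group, and the YFP+ points of Slfn8, Slfn9 and Slfn3 share 1 range.

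Slfn2 made up most of the family's reads. It took 85.2 to 88.5% of the reads of the 6 members in unstimulated samples, 92.6 to 94.2% in YFP- samples and 92.3 to 95.1% in YFP+ samples. The summed level of the members was 149 to 183 CPM in unstimulated samples, 169 to 190 CPM in YFP- samples and 71.5 to 120 CPM in YFP+ samples. The YFP+ sums lay below all others, and the sums of the other groups overlapped.

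Schlafen genes are known as interferon-stimulated genes, so a list of 30 other such genes was described beside them, of which 23 were tested. In YFP+ against YFP- samples 18 fell and 1 rose, where 18.5% of all genes tested fell and 3.28% rose. The median log2 difference was -1.16 against -0.19 for all genes tested. Rtp4, a chaperone for receptors, fell by 3.16 (limma adjusted p = 3.49e-06). Samhd1, which degrades deoxynucleotides, fell by 1.65 (limma adjusted p = 0.00251). Bst2, which tethers budding viruses to the cell, was the 1 that rose, by 0.41 (limma adjusted p = 0.0337).

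In YFP- against unstimulated samples 9 of the 23 fell and 3 rose, where 20.9% of all genes fell and 30.2% rose. The median was -0.58 against 0.14 for all genes. The number that fell there was 12 with quantile normalization and 14 with median centring or with the ribosomal RNA-like features left out. In YFP+ against unstimulated samples 18 fell and 0 rose at the threshold in limma, where 33.3% of all genes fell and 27.5% rose. With trimmed-mean scaling, however, 3 of the list rose there. Zbp1, a sensor of nucleic acids, fell by 1.46 in YFP- against unstimulated samples (limma adjusted p = 1.11e-05), and Ifi35, an interferon-induced protein, rose by 0.49 there (limma adjusted p = 0.00271).

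Of 18 genes of interferon signalling, 17 were tested. In YFP+ against YFP- samples 12 fell and none rose, where 18.5% of all genes fell and 3.28% rose. The median was -0.68 against -0.19 for all genes, and with trimmed-mean, quantile or median scaling 8 fell. Irf7, a transcription factor that drives type I interferon genes, averaged 38.1 CPM in unstimulated, 20.0 CPM in YFP- and 5.10 CPM in YFP+ samples. It fell by 1.98 on the log2 scale between the stimulated groups (limma adjusted p = 7.95e-05). Ifngr1, a chain of the interferon gamma receptor, fell by 2.33 there (limma adjusted p = 0.00309).

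Against unstimulated samples the signalling genes went both ways. In YFP- samples 5 fell and 4 rose, where 20.9% of all genes fell and 30.2% rose. In YFP+ samples 10 fell and 2 rose, where 33.3% of all genes fell and 27.5% rose. The 2 risers in YFP+ samples were Irf8, a transcription factor of lymphoid and myeloid cells, by 1.39 (limma adjusted p = 2.88e-05), and the kinase gene Jak2, by 1.13 (limma adjusted p = 0.000244). The lists were written with earlier results of these data known, so their direction is not independent evidence.

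**Figure D4:**
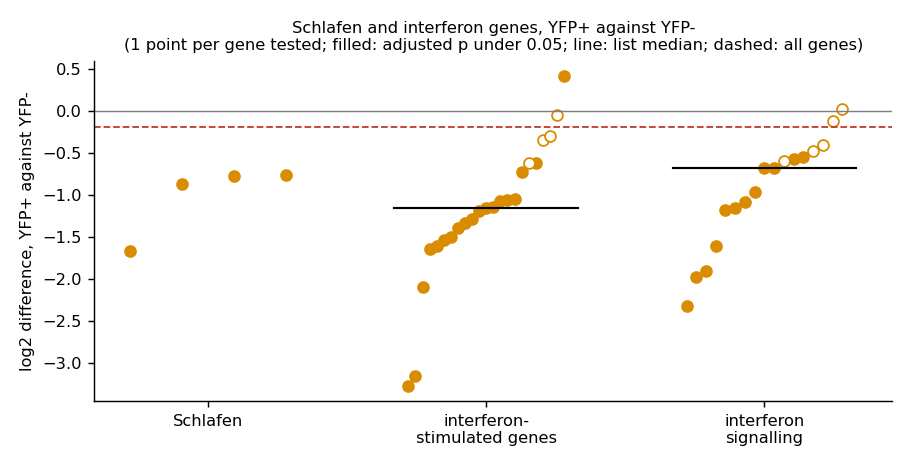
Log2 differences in YFP+ against YFP- samples (y axis) of the 4 Schlafen genes and of the tested genes of 2 interferon lists, with 1 point per gene, filled for an adjusted p under 0.05, lines for the 2 list medians and a dashed line for the median of all genes. Most points of each list lie below the dashed line, and Bst2 is the filled point above 0.

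Slfn2 is tied to quiescence, so 18 other regulators of quiescence were described, of which 17 were tested. In YFP+ against YFP- samples 9 fell and none rose, where 18.5% of all genes fell and 3.28% rose. The median log2 difference was -0.78 against -0.19 for all genes. Cdkn2d, an inhibitor of the cell cycle kinases, fell by 1.49 (limma adjusted p = 2.34e-05). In YFP+ against unstimulated samples 10 fell and 2 rose, where 33.3% of all genes fell and 27.5% rose. The median there was -0.56 against -0.03 for all genes, and with median centring 9 fell and 6 rose. In YFP- against unstimulated samples 6 fell and 6 rose, where 20.9% of all genes fell and 30.2% rose. With quantile normalization 9 fell and 6 rose. Among the risers was Foxp1, a transcription factor of resting lymphocytes, by 1.40 (limma adjusted p = 0.00011).

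Genes for the cleavage and processing of transfer RNA, on which Schlafen proteins act, went another way. Of 22 such genes 18 were tested, and in YFP- against unstimulated samples 12 rose and 1 fell. Of all genes 30.2% rose and 20.9% fell there, and the median log2 difference was 0.76 against 0.14 for all genes. Elac2, which trims the tail of transfer RNA precursors, rose by 1.78 (limma adjusted p = 0.000103), and Trnt1, which adds the CCA end, rose by 1.87 (limma adjusted p = 0.00077). In YFP+ against unstimulated samples 9 rose and 2 fell, where 27.5% of all genes rose and 33.3% fell. In YFP+ against YFP- samples 1 fell and none rose, where 18.5% of all genes fell and 3.28% rose. The faller was Tsen34 of the splicing endonuclease, by 0.55 (limma adjusted p = 0.0136). Under trimmed-mean, quantile or median scaling 2 or 3 rose. With quantile normalization or median centring 0 fell, so the Tsen34 call was lost there.

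The genes most like each tested member across the 12 samples were found by Pearson correlation of log2 CPM among 8071 or 8072 protein-coding genes, as a description. The samples share 3 groups and their library totals, so they are not independent points. Nearest to Slfn2 were Asb2 (r = 0.970), a substrate-recruiting subunit of a ubiquitin ligase, Oser1 (0.967) and Gimap6 (0.962), a lymphocyte GTPase. Nearest to Slfn8 were the membrane fusion gene Vamp8 (0.983), the kinase gene Map3k3 (0.981) and the phosphatase gene Ssh2 (0.979). Nearest to Slfn9 were the kinase gene Abl1 (0.982), Faap20 (0.981) and the chromatin gene Bicra (0.980).

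Nearest to Slfn3 were Slc10a7 (r = 0.869), Mpst (0.868) and Ctsw (0.867), a protease of cytotoxic lymphocytes. Among the members themselves the correlation was 0.869 for Slfn8 and Slfn9, 0.732 for Slfn2 and Slfn3 and 0.535 for Slfn2 and Slfn9. Slfn9 was nearer to its pseudogene relative Slfn10-ps (0.947) than to Slfn8.

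Markers of other cell types were checked because Schlafen genes are also expressed in myeloid cells. The 6 markers of monocytes and macrophages summed to 52.9 to 60.2 CPM in unstimulated samples, 27.3 to 44.4 in YFP- samples and 14.7 to 24.0 in YFP+ samples, the same order of groups as Slfn8 and Slfn9. Nearly all of that was Cd68, a lysosomal protein, with means of 55.3, 34.6 and 17.8 CPM in the 3 groups. The defining markers Csf1r and Adgre1 were at most 0.316 and 0.0308 CPM in any sample. Adgre1 was at 0 in every YFP+ sample and Lyz2 was at 0 in every YFP- sample.

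The 5 B cell markers summed to 1.78 to 4.19 CPM in unstimulated samples, 0.922 to 2.86 in YFP- samples and 0.470 to 1.37 in YFP+ samples. Cd79b averaged 2.21, 1.61 and 0.619 CPM and Cd79a 0.651, 0.357 and 0.235 CPM in the same order. Pax5 was at 0 in unstimulated samples. The 7 T cell markers summed to 118 to 167, 138 to 226 and 189 to 295 CPM, while Cd4 and Cd8b1 were at most 0.184 CPM. Cd28 was the highest, with means of 72.6, 124 and 199 CPM in unstimulated, YFP- and YFP+ samples. In the same order, the means of Cd3g were 47.9, 32.5 and 20.6 CPM and those of Cd3d 17.8, 15.7 and 10.4 CPM. The 5 dendritic cell markers summed to 2.18 to 3.57, 18.8 to 22.1 and 7.05 to 13.5 CPM. Zbtb46 averaged 1.57, 15.6 and 8.84 CPM and Xcr1 1.54, 4.78 and 1.82 CPM in unstimulated, YFP- and YFP+ samples. The neutrophil and erythroid lists summed to at most 0.605 and 0.326 CPM. Among the NK markers, Klrb1c, which encodes the NK1.1 antigen, averaged 308, 75.3 and 6.50 CPM in unstimulated, YFP- and YFP+ samples. The part of these differences in the Schlafen results was not tested.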

How the data were processed

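The 12 samples' values were deposited together as moderated log2 CPM, per the file headers, with CPM taken relative to the library total and a small prior count. The submitters' processing notes name bcl2fastq, STAR 2.7.9a, Subread, featureCounts 2.0.3 and GRCm38, with no role or order. Per the labels' protocols, the SMARTer Ultra Low kit gave cDNA, which was fragmented and read as paired ends, and no molecular identifiers are named. Of 55774 lines, 287 repeats were dropped, and 0 per-sample columns were left unmapped. Whole reads followed from 100% of the deposited values within 0.01 reads. The lowest chi-square per degree of freedom between replicates was 16.03, so no library was counted as a copy.

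The filter kept genes whose log2 CPM exceeded 0 in 4 or more samples. All 12 samples were fitted in limma 3.58.1 (R 4.3.3) with 1 coefficient per group and a trend, with no count model, and Benjamini-Hochberg adjustment. Fold differences are on the log2 scale with the deposited prior, which understates the change of low genes. The fit was tested on simulated data. Sequence and tables used Python 3.11.15, Biopython 1.88, pandas 2.3.3, matplotlib 3.10.9, scipy 1.17.1 and numpy 2.4.6. Named list genes were taken from the 2 largest rises and falls called in a comparison, with mean log2 CPM of at least 2. Of the list genes and markers, 2 are not reported here by name. The genes most like a member were the 3 with the highest correlation. The members, lists and rules were chosen with earlier results of these data known. Alternatives were other filters, scalings, variance models and sample sets, a pseudocount of 1 CPM, the label as a block and leaving out each label.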

Additional observations from a re-analysis of the deposited data

How the results depend on the processing

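The 12 differences of the 4 members tested were recomputed under up to 16 alternatives, giving 189 values, of which 165 kept both direction and side of the threshold and 22 lost the call. Of the differences, 7 were kept under every alternative run. Both values that changed sign were differences not called: Slfn2 in YFP- against unstimulated samples was -0.019 with quantile normalization, and Slfn3 there ran from -0.29 to 0.0068 when 1 replicate label was left out, the highest without replicate f2. The number of members called in YFP+ against YFP- samples was 4, and 2 with only the 8 samples compared, no filter, quantile normalization, centring on the sample median, trimmed-mean scaling, or voom weights (chosen after seeing the data). Leaving out 1 replicate label gave 2 to 3. The count was 3 with sample weights, with the replicate block and with the filter at log2 CPM above 2, and 4 with the pseudocount of 1 CPM, no trend or ribosomal RNA-like features left out. Slfn2 and Slfn8 were the members called in that comparison under every alternative. In YFP+ against unstimulated samples 5 members were called with no filter (Slfn1 added), and 3 with quantile normalization or with the filter at log2 CPM above 2, which leaves Slfn3 untested. Slfn10-ps passed in YFP+ against YFP- samples with sample weights (-0.66) and without replicate m3 (-0.75). Over all genes, 2691 were called in YFP+ against YFP- samples, 1583 with no filter and 1571 without replicate m2, the lowest of the 4 labels left out.

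The replicate label as a block changed 1 call of the 12, Slfn3 in YFP+ against YFP- samples (adjusted p = 0.0580), and called 3098 genes there. Correlations between samples sharing a label were 0.05 to 0.37 in that comparison, -0.04 to 0.38 in YFP+ against unstimulated samples and -0.06 to 0.10 in YFP- against unstimulated samples. The means were 0.24, 0.14 and 0.03 in the same order. Not every correlation was over 0.1 and the labels state no shared mouse or batch, so the label was not taken as a pairing. A pairing is not excluded by this. The planned edgeR test was not run. Depth limits Slfn1 and Slfn5, with 1 to 20 and 4 to 54 reads in a library.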
